A study of Mus musculus with 40 samples.

Results

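Endothelial class EC1 is a group of nuclei from the mouse kidney that carries the label EC1 in the coarser class column of the authors' deposited annotation. It held 796 of 16500 nuclei, which fall into 30 classes. The nuclei came from a cross-section of the right kidney of 4 male C57BL/6 mice aged 8 to 12 weeks, taken 24 h after surgery. Unilateral nephrectomy (UNx) had taken out the left kidney of 2 mice, and 2 mice had a sham operation. The labels put sham mouse 1 and UNx mouse 1 in batch 3, and sham mouse 2 and UNx mouse 2 in batch 4. EC1 held 319 and 79 nuclei in sham mice 1 and 2, and 291 and 107 in UNx mice 1 and 2. A second endothelial class, EC2, with 710 nuclei, served as the contrast. The series also holds bulk RNA sequencing of the right kidney at 24, 48 and 72 h, with 6 sham and 6 UNx samples at each time. Values below are listed in the order sham 1, sham 2, UNx 1, UNx 2 unless stated otherwise.

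Endothelial cells line the blood vessels. In the kidney they form the glomerular capillaries, which filter the blood, the fenestrated peritubular capillaries around the cortical tubules, the vasa recta of the medulla, and the arteries and veins. They depend on vascular endothelial growth factor (VEGF) made by podocytes and tubule cells, which they sense through the receptors Kdr and Flt1. After loss of 1 kidney, blood flow through the remaining one rises and its tubules enlarge.

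Batch 4 stood apart from batch 3. The median count of unique molecular identifiers (UMIs, which count captured RNA molecules) per EC1 nucleus was 3664 and 4062 in the sham and UNx mouse of batch 3, and 6570 and 7752 in those of batch 4. Summed over the EC1 nuclei of a mouse, 815306 to 1248280 UMIs were available. RNA of 12 proximal tubule markers in EC1 came to 6835, 16830, 9858 and 17532 CPM (counts scaled to 1000000 in all), and that of 5 thick ascending limb markers to 317, 5270, 385 and 5117 CPM. Both were higher in batch 4, and the proximal tubule sum was also higher in the UNx mouse of each batch. Mitochondrially encoded genes took 1.53%, 7.12%, 2.38% and 11.7% of EC1 counts, again higher in batch 4 and in the UNx mouse of each batch. Of the cell barcodes, 18 occurred in more than 1 library, and 1 of these marked an EC1 nucleus.

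**Figure D1:**
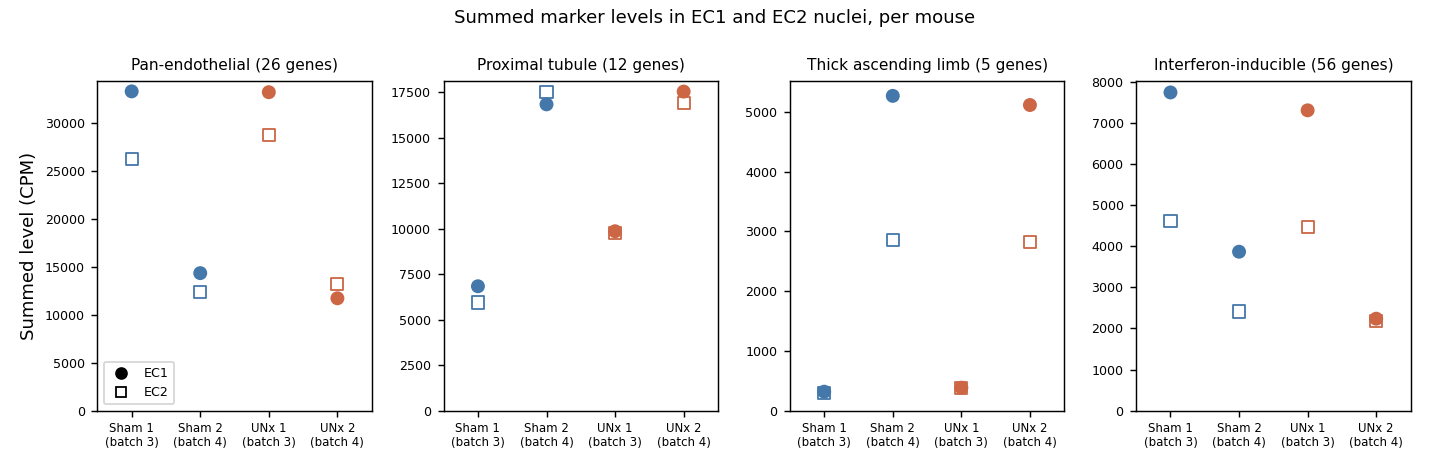
Summed levels (CPM) of 4 gene lists in EC1 and EC2, one point for each mouse, sham and UNx in different colours. Pan-endothelial RNA in EC1 was 33288 and 33203 CPM in the sham and UNx mouse of batch 3, and 14339 and 11715 CPM in those of batch 4, where tubule RNA was higher.

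The 3 markers given with the class were high in EC1 in all 4 mice. Flt1 stood at 3314, 1374, 3580 and 1278 CPM. Emcn, the capillary and venous sialomucin endomucin, stood at 3187, 1514, 3362 and 1177 CPM. Pecam1, an adhesion molecule of endothelial junctions, stood at 976, 373, 897 and 308 CPM. EC1 ranked first of the 30 classes for Flt1 and Emcn, and second after EC2 for Pecam1. The batch 3 mice lay above the batch 4 mice for each marker, and sham and UNx overlapped.

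When every nucleus was thinned to 1500 UMIs, which left out no EC1 nucleus, Flt1 had a UMI in 97.8%, 86.1%, 95.2% and 81.3% of EC1 nuclei. Unthinned, the mean over mice was 99.5%. In PTS1, a proximal tubule class that should lack the gene, the thinned shares were 0.521%, 4.65%, 0.390% and 2.56%, at median depths of 8358 to 12415 UMIs. In the other direction, Slc34a1, the phosphate carrier of the proximal tubule, had a UMI in 24.8%, 86.1%, 25.8% and 82.2% of thinned EC1 nuclei. EC1 nuclei of batch 4 thus carried tubule RNA in most cases.

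Of 26 pan-endothelial genes, 25 were higher in EC1 than in all other nuclei in 4 of 4 mice. Here and below, the other nuclei are all those outside EC1, with EC2 included. Markers of other vessels were mixed. Lyve1 (lymphatic) and Ackr1 (venular) had no count, which allows at most 2.51 CPM in sham mouse 1 (3 counts of its total). Vwf, found in larger vessels, had 1 UMI in UNx mouse 2 and none in the others, and the arterial connexin Gja5 reached at most 5.09 CPM. Of the glomerular endothelial genes, Sost and Gata5 stayed at or below 2.45 and 1.60 CPM, while Ehd3 was present at 172, 67.9, 179 and 66.9 CPM. The podocyte gene Nphs1 reached at most 7.37 CPM. Other arterial genes were present: 8 of 13 were higher in EC1 than in all other nuclei in 4 of 4 mice, and their summed level was 650, 259, 705 and 246 CPM in EC1 against 80.2, 106, 91.6 and 99.8 CPM in the others. Efnb2, an arterial ephrin ligand, stood at 330, 106, 369 and 81.1 CPM. Flt4, a VEGF receptor known from lymphatic vessels, stood at 154, 41.7, 150 and 42.4 CPM. The markers do not go against the endothelial label.

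The genes furthest apart between EC1 and EC2 were Btnl9 on the EC1 side and Nlgn1 on the EC2 side. The authors drew both classes from these counts, so the levels are a description with no test. Each ratio is the median over mice of log2(EC1 over EC2) with 10 CPM added to both, for genes with the same sign in 4 of 4 mice. Of 32285 genes, 4 were over 4 times higher in EC1 in every mouse (0.0124%) and 6 over 4 times lower (0.0186%).

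Btnl9, a butyrophilin-like membrane protein, led the EC1 side with a ratio of 3.84. It stood at 286, 107, 397 and 105 CPM in EC1 and at 4.63, 1.54, 4.81 and 2.80 CPM in EC2. Piezo2, a mechanically gated ion channel, had a ratio of 3.14, with 463, 196, 728 and 198 CPM in EC1. It is also on the list of 8 mural and juxtaglomerular markers, of which 1 was higher in EC1 than in all other nuclei in every mouse, and the mural receptor Pdgfrb reached at most 8.59 CPM. Esm1, a proteoglycan secreted by VEGF-stimulated endothelium, had a ratio of 3.05, with 238, 35.6, 247 and 21.7 CPM in EC1. In all 3 genes the batch 3 mice lay above the batch 4 mice, and sham and UNx overlapped.

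Also on the EC1 side, Igfbp3 and Igfbp5, which bind insulin-like growth factors (IGFs), had ratios of 2.89 and 2.36. The guidance ligand Slit3 had 2.47, Kitl, the ligand of the receptor Kit, had 2.45, and Npr3, the clearance receptor for natriuretic peptides, had 2.70. Plcb1, a phospholipase downstream of Gq-coupled receptors, had 2.27 and the highest level of the set, at 2714, 1695, 3724 and 1400 CPM in EC1. Lrrc3b, Sntb1, Nav3, Ncald, Ripor2 and the transcription factor Prdm1 complete the 15 genes, with ratios between 3.16 and 2.26.

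On the EC2 side the adhesion gene Nlgn1 was furthest apart, with a ratio of -5.20. It stood at 8.80, 36.0, 4.50 and 23.1 CPM in EC1 and at 1232, 714, 1860 and 665 CPM in EC2. Igf1, an IGF, had a ratio of -3.19, with 58.6, 51.5, 31.2 and 25.5 CPM in EC1 and 645, 314, 758 and 301 CPM in EC2. The growth factor was thus higher in EC2 and 2 of its binding proteins were higher in EC1, in every mouse. Also lower in EC1 were Flrt2 (-3.97), the Wnt effector Lef1 (-3.12), the matrix protease Mmp16 (-2.99), the netrin receptor Unc5c (-2.89), the organic anion carrier Slco1a4 (-2.89), the guidance ligand Sema3a (-2.61) and the cadherins Cdh13 (-2.51) and Cdh2 (-2.48).

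Among the lists of vessel position, those of the vasa recta and of the peritubular capillaries lay on opposite sides. All 8 vasa recta genes were lower in EC1 than in EC2 in 4 of 4 mice (median -0.75). Among them Slc14a1, the urea carrier of descending vasa recta, had 1.67, 1.23, 0.801 and 5.66 CPM in EC1 and 69.5, 40.1, 40.9 and 49.0 CPM in EC2. Of 9 peritubular and venous-side capillary genes, 8 were higher in EC1 (median 2.02). The exception was Plvap, the protein of fenestral diaphragms, at 607, 227, 437 and 154 CPM in EC1 and 708, 300, 720 and 247 CPM in EC2. The other vessel lists were mixed, with 1 gene higher and 1 lower in EC1 of 10 glomerular genes, 1 and 4 of 13 arterial, none and 3 of 5 venous, and 1 and 2 of 8 lymphatic genes. Of 17 VEGF and angiopoietin genes 8 were higher and 4 lower in EC1. Kdr stood at 650, 249, 638 and 172 CPM in EC1 against 121, 57.6, 113 and 36.4 CPM in EC2. The median over the 26 pan-endothelial genes was 0.17.

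**Figure D2:**
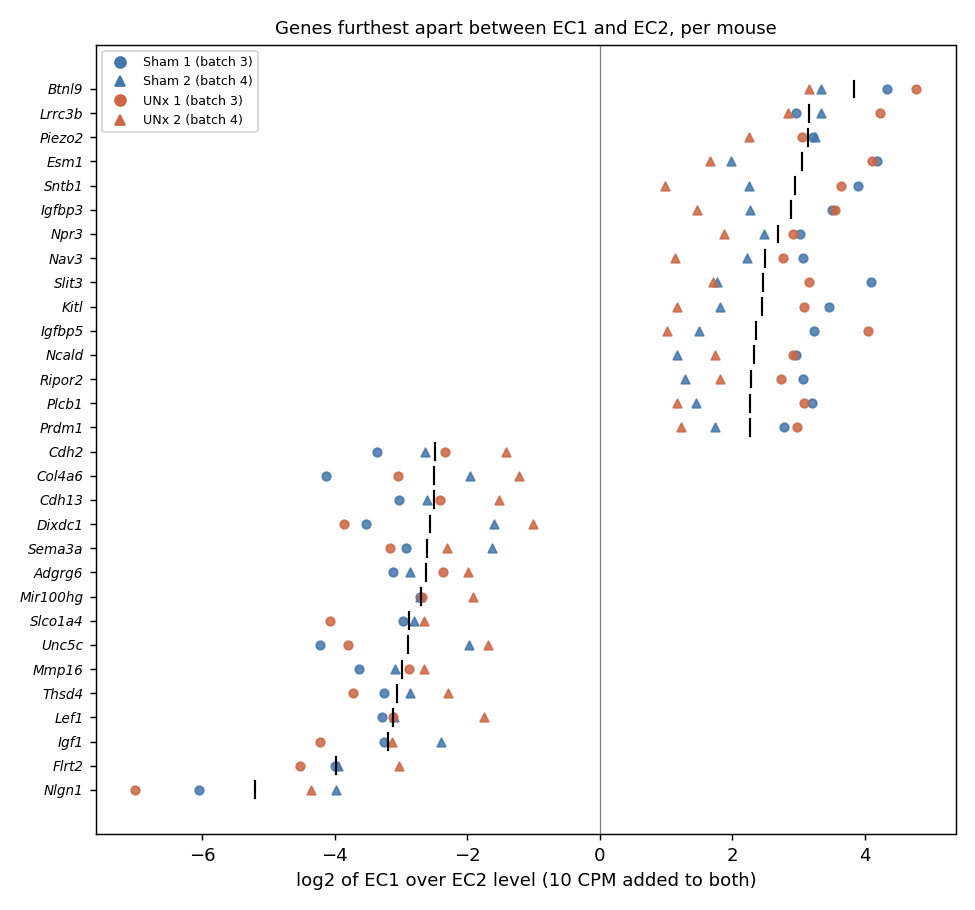
log2 ratio of the EC1 to the EC2 level (10 CPM added) for the 15 genes furthest apart in each direction, one point for each mouse and a black bar at the median. Medians run from 3.84 for Btnl9 to -5.20 for Nlgn1, and each gene keeps its sign in all 4 mice.

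Against all other nuclei, 127 genes (0.393%) were over 4 times higher in EC1 in each mouse. The 15 that led were Cyyr1, Flt1, Plpp1, Kdr, Emcn, Shank3, Mef2c, Rapgef4, Rasgrp3, Edil3, Exoc3l2, Lrrc8c, Egfl7, Rsad2 and Gvin1, with median ratios from 5.06 to 4.18. Most are known endothelial genes, but Rsad2 (the antiviral protein viperin) and Gvin1 (a large GTPase) are genes that interferons induce. Rsad2 stood at 645, 203, 628 and 180 CPM in EC1 and at 8.57, 12.9, 8.07 and 12.3 CPM in the other nuclei. Gvin1 stood at 1066, 616, 1150 and 413 CPM in EC1.

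A list of 56 interferon-inducible genes was drawn up after these levels had been seen, so its counts only describe. In 4 of 4 mice, 51 of the 56 were higher in EC1 than in all other nuclei (median ratio 1.44), and 29 were higher and 1 lower in EC1 than in EC2 (median 0.48). Their summed level in EC1 was 7746, 3869, 7311 and 2238 CPM. Ifi203 and Mndal, Iigp1 and Gm4951, H2-D1 and H2-K1, and the Gvin genes have close copies among which reads may be split.

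Promoters of interferon-inducible genes often hold an element that interferon regulatory factors bind, whose core is the letters GAAA repeated after any 2 bases. This core of the interferon-stimulated response element was searched on both strands in the 250 bases before each start in RefSeq promoters (GRCm38.p6). It was found in 25 of the 44 listed genes that were searched (56.8%), and in 936 of the 27025 genes searched in all (3.46%). The search did not cover every chromosome. Rsad2 is shown because it led the group in EC1, Ifi203 and Mndal because of their shared sequence, and Irgm1 and Igtp as 2 members of the immunity-related GTPases. Each is given on the strand of its gene with the matches in capitals, at chr12:26456523-26456612 (Rsad2, minus strand), chr1:173942493-173942567 (Ifi203, minus), chr1:173880188-173880263 (Mndal, minus), chr11:48871421-48871490 (Irgm1, minus) and chr11:58199482-58199555 (Igtp, plus).
Rsad2: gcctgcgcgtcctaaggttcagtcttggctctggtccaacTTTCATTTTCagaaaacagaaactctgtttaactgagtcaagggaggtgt
Ifi203: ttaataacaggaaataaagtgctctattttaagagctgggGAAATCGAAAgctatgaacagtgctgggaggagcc
Mndal: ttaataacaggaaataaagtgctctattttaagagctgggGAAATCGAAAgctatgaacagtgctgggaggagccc
Irgm1: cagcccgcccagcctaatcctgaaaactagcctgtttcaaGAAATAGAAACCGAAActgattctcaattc
Igtp: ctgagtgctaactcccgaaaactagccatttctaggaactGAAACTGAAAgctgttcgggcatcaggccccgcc
In Rsad2 the match lies on the reverse strand, and in Irgm1 2 matches overlap. The Ifi203 and Mndal stretches were identical over 75 of 75 bases compared. A match describes letters and is not a measured binding site.

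The UNx effect on EC1 was small against the difference between batches. EC1 counts were summed for each mouse and tested with edgeR's quasi-likelihood test, with EC1 levels given from here on as CPM scaled by the trimmed mean of M-values (TMM), and levels of other nuclei as unscaled CPM. With no batch in the model, 0 of 10643 genes passed an adjusted p of 0.05 (0.0%), and 16 had an unadjusted p under 0.05. DESeq2's Wald test and limma voom also called 0 genes, with 5 and 9 at an unadjusted p under 0.05. With the labelled batch as a block, 88 genes passed (0.827%), 59 higher in UNx (0.554%) and 29 lower (0.272%). Both UNx mice lay above both sham mice for 766 genes (7.2%) and below them for 887 (8.33%). Every adjusted p in the EC1 paragraphs below comes from the edgeR fit with the block unless another is named, and none of these genes passed without it. Once the batch is fitted, the 4 mice leave little spread to measure, so these p-values rest largely on spread estimated across genes.

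Tubule genes and mitochondrially encoded genes were among the 88. EC1 held less of 47 of the 88 than the other nuclei did, as it did of 5305 of the 10643 genes tested. One of the 47 was Slc22a6, an organic anion carrier of the proximal tubule, at 35.8, 165, 76.9 and 333 CPM (log2 change 1.05 ± 0.20, adjusted p = 0.00102). Of 13 mitochondrially encoded genes 11 were called, all higher in UNx (median log2 change over the 13 of 0.70). Gm42418, which overlaps a ribosomal RNA repeat, had a log2 change of 0.84 ± 0.12 (SE) and an adjusted p of 8.03e-06. With no block and without UNx mouse 2, the changes of Slc22a6 and Gm42418 were -0.38 and -0.85, and without sham mouse 2, sham mouse 1 or UNx mouse 1 they were 2.50 and 2.44, 0.32 and 0.33, and 1.73 and 1.81. Leaving out a mouse leaves the batches unbalanced. The part of tubule RNA and of RNA quality in the calls was not tested. There remained 30 called genes that EC1 held more of than the other nuclei and that were not mitochondrially encoded, and 50 of the 88 were among the 62 genes called (0.626%) when the EC1 nuclei with the highest UMI totals were left out. DESeq2's Wald test with the block called 11 (0.103%), and edgeR with the block called 30 in EC2 (0.295%; 0.157% higher, 0.138% lower) and 274 in the other nuclei (1.38%). When the block was fitted only on genes higher in EC1, 11 of 5338 passed (0.206%), namely Cyp26b1, Odc1, Gm42418 and 8 mitochondrially encoded genes. The other calls on genes higher in EC1 described below were lost there, with changes of about the same size, such as 1.02 for Adamts9 (adjusted p = 0.0877), 1.58 for Nr4a1 and -1.21 for Apoe (both adjusted p = 0.0729) and -1.14 for Iigp1 (adjusted p = 0.448). Lpl and Slc22a6, lower in EC1, were not in that fit.

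**Figure D3:**
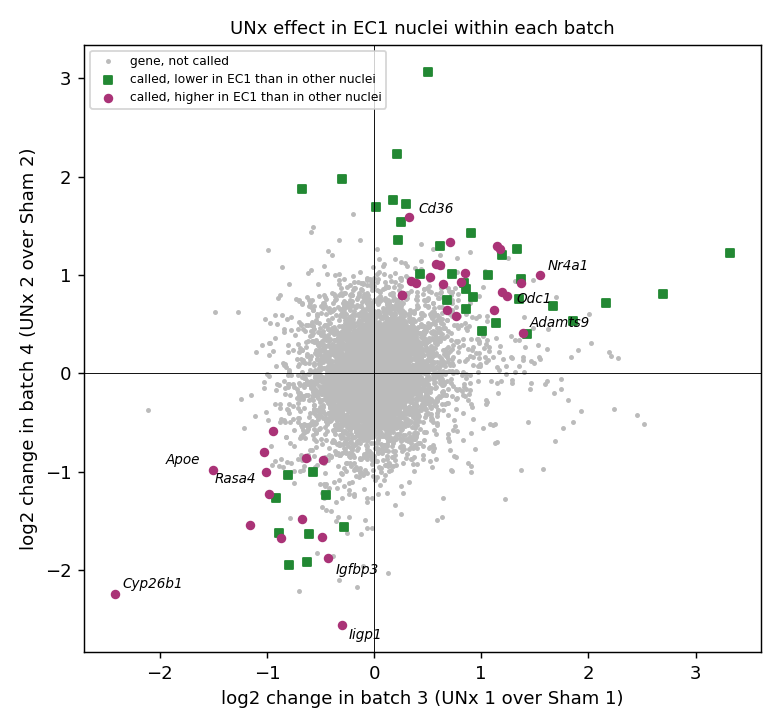
log2 change from sham to UNx in EC1 for each gene whose mean log2 CPM reached 5, batch 3 on the x axis and batch 4 on the y axis (2 CPM added). Over the 6094 genes the changes of the batches correlated at r = 0.17 (Spearman's rho 0.14, across genes, which are not independent), and the genes called with the block are marked by whether EC1 holds more or less of them than other nuclei.

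The called rises named here were Adamts9, Zbtb7c, Cfap20 and Cyp2a4, whose groups did not overlap. Adamts9, a secreted protease that cuts matrix proteoglycans (chr6:92772699-92943492, minus strand, GRCm38), stood at 103, 117, 274 and 156 CPM. UNx mouse 1 was far above the others and UNx mouse 2 slightly above the sham mice. The log2 change was 0.96 ± 0.20 (adjusted p = 0.00331). Adamts9 is not particular to endothelium: its level in the other nuclei was 85.5, 126, 118 and 70.8 CPM. After thinning it had a UMI in 10.0%, 17.7%, 20.6% and 12.1% of EC1 nuclei and in 14.4%, 16.9%, 20.8% and 11.2% of PTS1 nuclei. In fibroblast nuclei the thinned share was higher, at 51.3%, 44.9%, 59.5% and 31.7%. The change in EC1 exceeded that in the other nuclei by 1.07 ± 0.19 (adjusted p = 1.53e-05, class by block), but the thinned share in EC1 did not separate the groups.

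Zbtb7c, a zinc finger transcription factor, stood at 52.4, 37.2, 122 and 67.7 CPM, with both UNx mice above both sham mice. Its log2 change was 1.08 ± 0.24 (adjusted p = 0.0103), and it exceeded that in the other nuclei by 1.06 ± 0.26 (adjusted p = 0.0263). Cfap20, a protein of cilia, stood at 20.0, 22.3, 54.7 and 44.1 CPM (adjusted p = 0.0288). Cyp2a4, whose reads may be split with its near-identical neighbour Cyp2a5, stood at 20.0, 32.3, 46.8 and 82.0 CPM (adjusted p = 0.00832) and rose in the other nuclei as well (log2 change 1.14, adjusted p = 0.0465). The naming rule ordered genes by the unadjusted p of the fit with no block. These 4 are the rises it reached that were called with the block. The other 8 rises it reached, Calm3, Pcdh9, Lamtor1, Etv1, Ppp3cc, Bcam, Cebpz and Clec16a, had log2 changes of 0.74 to 1.13 that did not pass.

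Further called rises, chosen after their values were seen, were Cd36, Lpl, Odc1 and Hspa5. Cd36, a fatty acid translocase, stood at 190, 110, 239 and 336 CPM, with both UNx mice above both sham mice (log2 change 0.91 ± 0.19, adjusted p = 0.00468). It also rose in the other nuclei (1.45, adjusted p = 0.0139), and the difference did not pass (-0.46, adjusted p = 0.607). Lpl, the lipase of capillary lumens, stood at 58.3, 243, 94.4 and 410 CPM, higher in the UNx mouse of each batch but overlapping between groups (0.73 ± 0.18, adjusted p = 0.0291). With no block, its change was -0.67 without UNx mouse 2, 0.06 without sham mouse 1, 2.10 without sham mouse 2 and 1.44 without UNx mouse 1. Of the 12 lipid uptake genes tested these 2 rose and none fell, against 0.554% of all genes called higher, with a list median of 0.37 against -0.01 over all genes. The list median was 0.48 in EC2 and 0.26 in the other nuclei, so the rise of the list median was not particular to EC1. Lpl itself differed: with class by block its change in EC1 exceeded that in the other nuclei, as given below. RNA of 4 adipocyte markers was also highest in UNx mouse 2, at 3.35, 0, 1.60 and 23.1 CPM in EC1, where Lep had no count, and at 3.47, 1.42, 3.64 and 25.5 CPM in the other nuclei. The summed lipid uptake level in the other nuclei was 507, 553, 493 and 1067 CPM. The part of adipocyte RNA in these rises was not tested.

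Odc1, the rate-limiting enzyme of polyamine synthesis, stood at 56.6, 141, 136 and 245 CPM (1.01 ± 0.19, adjusted p = 0.00132). It also rose in EC2 (0.91, adjusted p = 0.0384) and in the other nuclei (0.78, adjusted p = 0.0429). Hspa5, a chaperone of the endoplasmic reticulum, stood at 49.95, 169, 111 and 266 CPM (0.87 ± 0.19, adjusted p = 0.00935). In both genes the UNx mouse was the higher of each batch, and UNx mouse 1 lay below sham mouse 2. With no block, the change of Hspa5 was 0.02 without UNx mouse 2, 0.17 without sham mouse 1 and 1.90 without sham mouse 2, and that of Odc1 was 1.74 without sham mouse 2.

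Nr4a1, an orphan nuclear receptor of the immediate early class (chr15:101254269-101274795, plus strand), stood at 24.1, 6.21, 74.6 and 14.4 CPM. In CPM the UNx mouse was the higher in each batch, but UNx mouse 2 lay below sham mouse 1, and its value rests on 14 UMIs. After thinning, 3.13%, 2.53%, 10.3% and 0.935% of EC1 nuclei had a UMI. By that measure the UNx mouse was the higher in batch 3 and the lower in batch 4, where few nuclei had a UMI. The log2 change was 1.53 ± 0.35 (adjusted p = 0.0111), and with no block it was -0.13 without UNx mouse 1, 0.89 without sham mouse 2, 2.26 without UNx mouse 2 and 2.86 without sham mouse 1. Nr4a1 was the 1 gene called of 10 immediate early genes tested (list median 0.04), against 0.554% of all genes called higher. Fosl2 stood at 15.0, 6.21, 42.0 and 13.3 CPM (adjusted p = 0.160), and Egr1 had a log2 change of 0.30 (adjusted p = 0.971).

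The promoter of Nr4a1 is known for sites resembling the element that CREB binds. The RefSeq sequence before its start (chr15:101266596-101266845, plus strand, GRCm38.p6) is shown because Nr4a1 was the immediate early gene that was called. It holds 4 matches to TGACGCA, all on the reverse strand, which appear as TGCGTCA in capitals.
Nr4a1: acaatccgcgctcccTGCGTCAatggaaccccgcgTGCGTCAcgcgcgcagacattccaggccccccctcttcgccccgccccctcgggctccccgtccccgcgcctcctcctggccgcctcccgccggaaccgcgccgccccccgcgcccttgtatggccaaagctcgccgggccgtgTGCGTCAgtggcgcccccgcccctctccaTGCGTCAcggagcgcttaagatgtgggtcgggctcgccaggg
This motif was found on either strand in 574 of the 32851 promoters searched (1.75%) in the 250 bases before the start, and 1 of these promoters held 4 or more matches. The match is a description of letters, and CREB binding was not measured.

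Falls were led by Cyp26b1, an enzyme that breaks down retinoic acid (chr6:84571414-84593908, minus strand). It stood at 212, 7.45, 38.1 and 0 CPM, from 255, 6, 48 and 0 UMIs. The level of sham mouse 1 was far above the others, and UNx mouse 1 lay above sham mouse 2, so the groups overlapped. The log2 change was -2.55 ± 0.32 (adjusted p = 3.61e-07), with nearly all UMIs in batch 3. With no block it was 1.41 without sham mouse 1, -1.53 without UNx mouse 2 and -3.44 without sham mouse 2. After thinning, 19.7%, 2.53%, 5.15% and 0% of EC1 nuclei had a UMI, where 0 of 107 thinned nuclei allows a share with a UMI of up to 2.80% (3 counts of the total; the exact upper limit was 3.39%). In unscaled CPM Cyp26b1 stood at 10.2, 1.54, 1.602 and 0 in EC2, from 11, 1, 2 and 0 UMIs. The 0 allows at most 4.203 CPM (3 counts of the total), so batch 4 gives no direction there. In the other nuclei, EC2 included, it stood at 1.17, 1.79, 0.766 and 0.683 CPM. The UNx mouse of each batch was thus the lower outside EC1 as well, at low levels. Cyp26b1 and Lpl were the called members of the 7 glomerular endothelial genes tested, 1 in each direction, against 0.272% of all genes called lower and 0.554% called higher.

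Igfbp3 (chr11:7206086-7213923, minus strand) stood at 459, 137, 340 and 35.9 CPM. It was lower in the UNx mouse of each batch, by 0.43 in batch 3 and by 1.87 in batch 4 on the log2 scale, while UNx mouse 1 lay above sham mouse 2. The log2 change was -0.92 ± 0.20 (adjusted p = 0.00793), and with no block it was 0.20 without UNx mouse 2, 0.51 without sham mouse 1, -1.28 without sham mouse 2 and -3.07 without UNx mouse 1. Igfbp3 also marks EC1 against EC2. In unscaled CPM it stood at 31.49, 20.06, 20.02 and 5.604 in EC2, from 34, 13, 25 and 4 UMIs. In the other nuclei, EC2 included, it stood at 12.7, 16.3, 6.01 and 11.1 CPM. In both, the UNx mouse of each batch was the lower, so the direction of the fall was not particular to EC1. Igfbp3 is on 3 lists and was the 1 called gene of 9 peritubular capillary genes (list median -0.12), of 11 sprouting genes and of 21 insulin, IGF and FoxO genes. Of all genes tested, 0.272% were called lower. Igfbp5 stood at 983, 406, 887 and 319 CPM (log2 change -0.24, adjusted p = 0.756).

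Apoe, a lipid-carrying protein, stood at 75.8, 103, 25.4 and 51.3 CPM, with both UNx mice below both sham mice (-1.27 ± 0.25, adjusted p = 0.00223). It also fell in the other nuclei (-0.59, adjusted p = 0.0475), and with no block its change in EC1 was -1.81 without UNx mouse 2. Rasa4, a Ras inhibitor, stood at 94.9, 53.4, 46.0 and 25.6 CPM, again with no overlap (-1.05 ± 0.26, adjusted p = 0.0288). The other 10 falls that the naming rule reached did not pass, with Igf1 among them at 58.3, 52.1, 30.9 and 27.7 CPM (adjusted p = 0.141).

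Pde7b, a cAMP phosphodiesterase chosen after its values were seen, stood at 1316, 622, 944 and 337 CPM (-0.67 ± 0.15, adjusted p = 0.00877). Its log2 change in the other nuclei was -0.02, and the difference between them did not pass (-0.58 ± 0.15, adjusted p = 0.0721). With no block its change in EC1 was 0.08 without sham mouse 1 and -1.54 without UNx mouse 1. Of 49 interferon-inducible genes tested, 3 fell and none rose, namely Iigp1, Gm4951 and H2-D1, against 0.272% of all genes called lower. Iigp1, an immunity-related GTPase, stood at 159, 196, 129 and 31.8 CPM (-1.21 ± 0.25, adjusted p = 0.0029). With no block and without UNx mouse 2, the changes of Iigp1 and Gm4951 were -0.47 and -0.13, and without UNx mouse 1 they were -2.49 and -2.23. That of H2-D1 was -0.10 without sham mouse 1 and -1.47 without UNx mouse 1. The list median was -0.34, with -0.16 in batch 3 and -0.83 in batch 4, and pan-endothelial RNA was also lowest in UNx mouse 2. In EC2 and in the other nuclei the list median was -0.12 and -0.22.

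**Figure D4:**
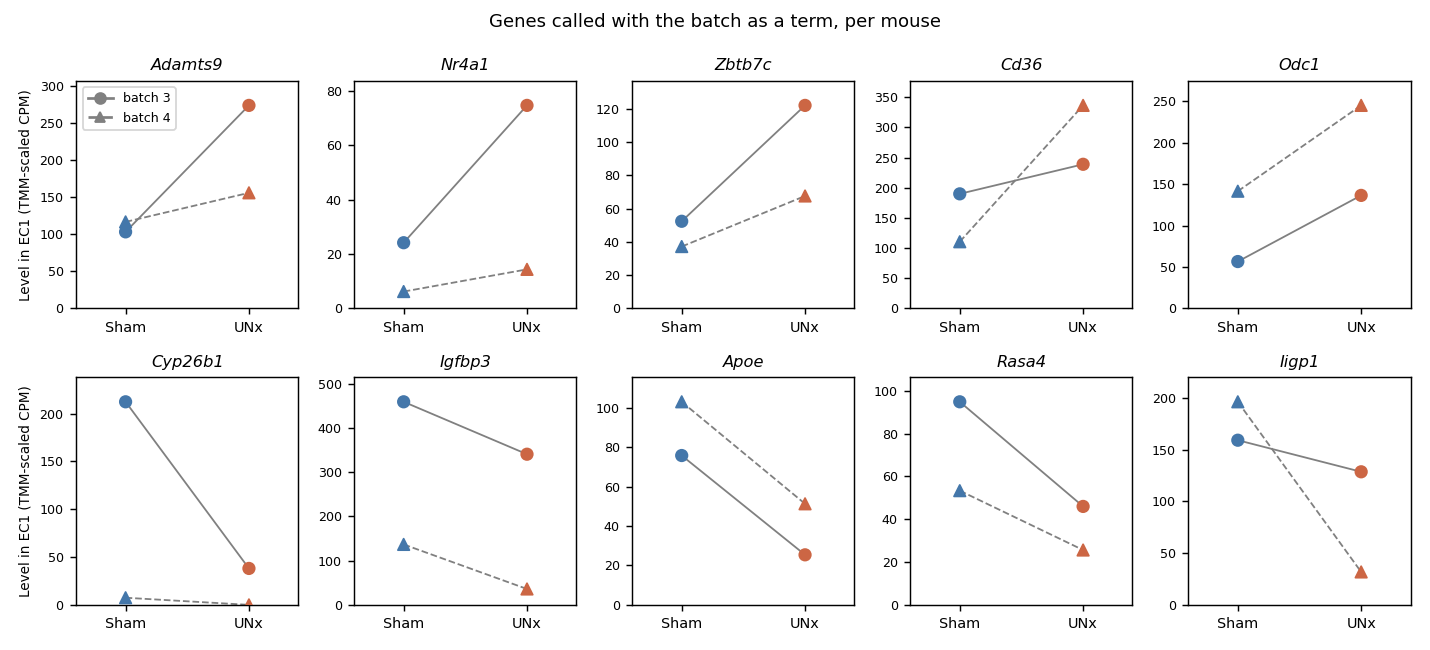
TMM-scaled CPM of named genes in EC1, one point for each mouse, with the mice of a batch joined. Adamts9 reaches 274 and 156 CPM in the UNx mice, and Cyp26b1 falls from 212 to 38.1 CPM in batch 3 and from 7.45 to 0 CPM in batch 4.

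Most lists of endothelial function held no called gene. None of the 26 pan-endothelial, 16 VEGF and angiopoietin, 22 flow response, 9 Notch, 14 basement membrane, 18 cholesterol synthesis and 13 angiocrine genes tested passed. Their medians ran from -0.07 for the pan-endothelial genes to 0.19 for the basement membrane and angiocrine genes. Klf2, a transcription factor induced by laminar flow, stood at 176, 32.3, 117 and 47.2 CPM, lower in the UNx mouse of batch 3 and higher in that of batch 4. Kdr stood at 646, 252, 631 and 187 CPM (log2 change -0.21, adjusted p = 0.844). A missed threshold does not show that the genes were unchanged. Of the 822 genes whose EC1 level was over 4 times that in other nuclei, 8 were called lower and 1 higher with the block. In these directions 84 and 11 had an unadjusted p under 0.05, and the median change was -0.13 (-0.06 in batch 3, -0.23 in batch 4). Over all 10643 genes tested, 29 were called lower and 59 higher, 446 and 450 had an unadjusted p under 0.05, and the median was -0.01. The median change of the 822 genes was 0.05 in EC2 and -0.05 in the other nuclei. Igfbp3 and interferon-inducible genes, described above, are among the genes high in EC1. Proximal tubule RNA in EC1 was higher in the UNx mouse of each batch (9858 against 6835 CPM and 17532 against 16830 CPM), and its part in these changes was not tested.

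The effect in EC1 was also set against that in EC2. With no block, 0 of 11587 genes differed (0.0%), and 288 had an unadjusted p under 0.05. With class by block 10 passed (0.0863%), 9 higher in EC1 (0.0777%) and 1 lower (0.00863%). The lower one was Lepr, the leptin receptor. In unscaled CPM it stood at 78.7, 49.2, 48.1 and 28.3 in EC1, with both UNx mice below both sham mice, and at 332, 174, 586 and 274 in EC2. The difference was -1.49 ± 0.28 (adjusted p = 0.00107). The change within EC1 did not pass (-0.71, adjusted p = 0.299), while Lepr rose in EC2 (0.78 ± 0.19, adjusted p = 0.0406). The higher genes included Gramd1b (1.49 ± 0.25) and Pax8 (1.46 ± 0.34), a transcription factor of tubule epithelium.

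Against all other nuclei, 0 of 18951 genes differed with no block (0.0%, 50 at an unadjusted p under 0.05), and 37 with class by block (0.195%), 30 higher (0.158%) and 7 lower (0.0369%). Besides Adamts9 and Zbtb7c, Lpl was among the higher (0.94 ± 0.18, adjusted p = 0.000327). Pcdh17, a protocadherin, was among the lower (-1.13 ± 0.16, adjusted p = 1.62e-09), with 852, 453, 877 and 234 CPM in EC1. Its change within EC1 did not pass (adjusted p = 0.373), and it rose in the other nuclei, EC2 included (0.78, adjusted p = 0.0372).

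The share of nuclei in EC1 did not separate the groups. It was 5.97%, 2.99%, 5.65% and 3.18% of all nuclei, with 95% exact binomial (Clopper-Pearson) intervals of 5.35 to 6.64, 2.38 to 3.71, 5.03 to 6.32 and 2.61 to 3.83, which cover counting error only. The means were 4.48% ± 2.11 in sham and 4.41% ± 1.75 in UNx (SD, n = 2 each, two-sided exact permutation p = 1). The mice fell into pairs by batch. Of EC1 and EC2 together, EC1 made up 55.6%, 54.5%, 49.5% and 53.8%, lower in both UNx mice (two-sided exact permutation p = 0.333, the smallest this design allows).

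Bulk RNA of the whole kidney measured these genes in more samples, though there fewer cells of a type and less RNA per cell cannot be told apart. Libraries held 14868494 to 24108587 counts. At 24 h 3852 of 14104 genes were called (27.3%, 14.2% higher and 13.1% lower), at 48 h 4696 of 14280 (32.9%, 16.9% and 16.0%) and at 72 h 249 of 14556 (1.71%, 1.21% and 0.502%). At 48 h the mitochondrial share was 25.8% to 26.4% in UNx replicates 1 to 5, 15.2% in UNx replicate 6 and 14.0% to 15.5% in sham. Adding that share to the model left 0 genes at 48 h (0.0%), 677 at 24 h (4.8%) and 172 at 72 h (1.18%). The share separated 5 of the 6 UNx samples from sham at 48 h, so the UNx effect and this share cannot be told apart there.

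Of the 26 pan-endothelial genes, 4 rose and 2 fell at 24 h, 8 fell and none rose at 48 h, and none passed at 72 h, with medians of 0.04, -0.14 and -0.12. Of all genes, 14.2% rose and 13.1% fell at 24 h, so the rises at 24 h were near the share over all genes. At 48 h 16.9% of all genes rose and 16.0% fell. With the mitochondrial share as a covariate none passed at any time. The 3 markers of the class were not called at any time. Flt1 ranged from 55.8 through a median of 64.8 to 81.2 CPM in sham and from 61.2 through 67.9 to 71.4 CPM in UNx at 24 h, with overlap.

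Esm1, which marks EC1 against EC2, was lower after UNx in bulk. At 24 h it ranged from 20.2 through 24.3 to 27.4 CPM in sham and from 12.7 through 15.9 to 21.1 CPM in UNx (log2 change -0.51 ± 0.11, edgeR adjusted p = 0.00423). At 48 h it ranged from 15.7 through 18.8 to 21.8 CPM in sham and from 7.47 through 12.6 to 14.4 CPM in UNx, with no overlap (-0.65 ± 0.13, edgeR adjusted p = 0.00304). All 12 UNx samples lay below the sham mean of their time. With the mitochondrial share as a covariate the edgeR adjusted p was 0.0809 at 24 h and 0.446 at 48 h, and at 72 h Esm1 did not pass in either fit (0.03 with no covariate). In EC1 itself Esm1 stood at 237, 36.0, 244 and 23.6 CPM (adjusted p = 0.972).

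Thbd, the anticoagulant receptor thrombomodulin and a flow response gene, ranged from 11.0 through 13.9 to 19.6 CPM in sham and from 20.8 through 21.3 to 23.4 CPM in UNx at 24 h. The groups did not overlap (0.58 ± 0.10, edgeR adjusted p = 0.000938, and 0.0773 with the mitochondrial share). At 48 h Thbd ranged from 20.3 through 21.0 to 25.4 CPM in sham and from 17.4 through 19.0 to 25.8 CPM in UNx, where 1 of 6 UNx samples lay above the sham mean (-0.11 ± 0.09, edgeR adjusted p = 0.368). At 72 h the log2 change was 0.15 (edgeR adjusted p = 0.418). Of 25 flow response genes 5 rose and 3 fell at 24 h, which is near the shares over all genes of 14.2% higher and 13.1% lower. In EC1 Thbd stood at 37.5, 16.1, 46.8 and 13.3 CPM, with overlap.

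The genes called in EC1 were less clear in bulk. Adamts9 was higher at 24 h, from 13.2 through 15.0 to 16.2 CPM in sham and from 14.2 through 17.6 to 18.3 CPM in UNx (0.21 ± 0.07, edgeR adjusted p = 0.045, and 0.423 with the mitochondrial share). Cyp26b1 did not pass at 24 h (-0.80 ± 0.41, edgeR adjusted p = 0.158) and rose at 48 h (2.41 ± 0.50, edgeR adjusted p = 0.00294, and 0.529 with the mitochondrial share). Igfbp3 did not pass at any time, with log2 changes of -0.08, -0.15 and -0.34, but with the mitochondrial share it was lower at 24 h (-0.43, edgeR adjusted p = 0.0494). Apoe fell at 72 h, from 100.4 through 136 to 162 CPM in sham to 74.6 through 95.7 to 116 CPM in UNx (-0.50 ± 0.11, edgeR adjusted p = 0.0429, and 0.0784 with the mitochondrial share). Zbtb7c and Nr4a1 did not pass at any time.

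**Figure D5:**
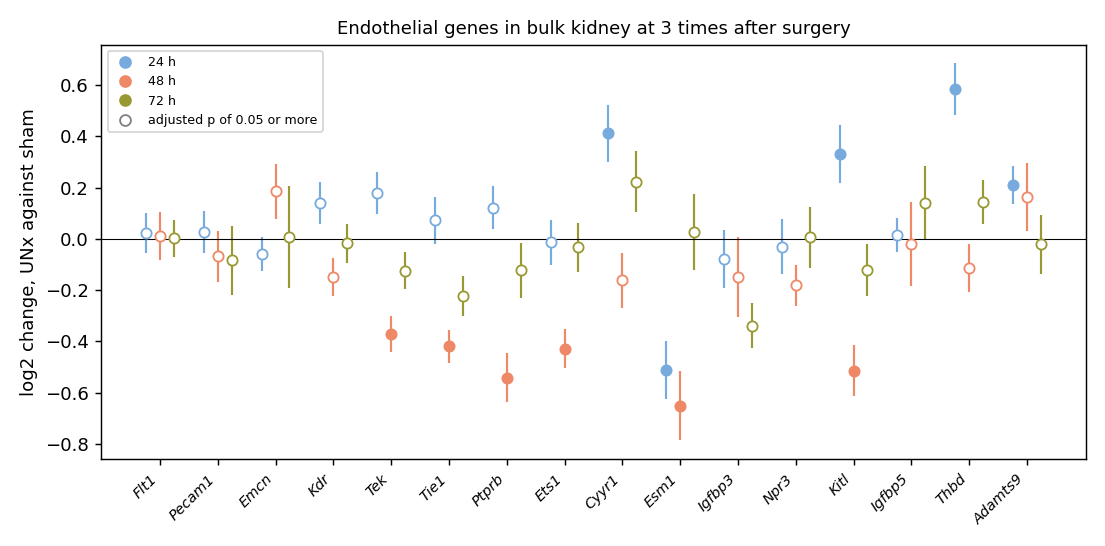
log2 change from sham to UNx in bulk kidney (y axis) at 24, 48 and 72 h after surgery, with 6 samples in each group. The 16 genes are members of the endothelial lists and Adamts9, which is not particular to endothelium. Bars are 1 SE, and points are filled where the edgeR adjusted p was under 0.05. Esm1 lies at -0.51 at 24 h and -0.65 at 48 h and Thbd at 0.58 at 24 h, all filled, while Flt1, Pecam1 and Emcn are open at every time.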

How the data were processed

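The members, gene lists and tests were chosen with earlier results of these data known. Single-nucleus libraries (DAPI-sorted nuclei, 10x 3' chemistry, per the labels) were quantified with alevin and handled in Seurat against mm10, and bulk libraries with Salmon 1.5.0 against GRCm39, per the submitters' processing notes. The authors deposited UMI counts per nucleus, which are estimated counts that need not be whole, a table of classes, and estimated counts per gene for the bulk samples. Values were rounded to whole counts after summing. The classes were taken as deposited. No doublet caller was run. Counts of EC1, of EC2 and of all nuclei outside EC1 were summed for each mouse. The nuclei outside EC1, called the other nuclei, include EC2. The sums were fitted with edgeR 4.0.16 (R 4.3.3, quasi-likelihood test, TMM scaling, low-count filter, Benjamini-Hochberg adjustment), with limma 3.58.1 and DESeq2 1.42.0 as alternatives. Main fits had no block. The replicate numbers of the nuclei pair the mice because the labels give each number 1 batch, and deviations from the group means correlated within batches at r = 0.896 over 5776 genes. Nothing says how bulk samples were paired. The labels name separate samples, so p-values of fits with no block measure the spread between them. With the block or class by block, the 4 mice leave little spread to measure. Those p-values rest largely on spread estimated across genes. EC1 sums of 815306 to 1248280 UMIs set the precision. Genes were named by rule: no overlap, a mean log2 CPM of at least 5, called genes first and then the lowest unadjusted p, up to 12 in each direction, predicted, ribosomal and mitochondrial genes left out. The 15 largest ratios were named for levels. List members could be named too, and other genes are said to be chosen after their values were seen. Gene positions are GENCODE M21. The scripts were tested on simulated data.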

Additional observations from a re-analysis of the deposited data

Results flagged for a closer look

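Bulk levels of genes named for EC1 were screened for single samples far from the other 5 of their group, over 72 groups. Chance alone gives about 1 in 20, and 12 groups had such a sample. Flt1 was 75.7 CPM in sham replicate 1 at 72 h, against 59.3 to 64.0 CPM in the others. Pecam1 was 43.1 CPM in UNx replicate 1 at 48 h (others 55.1 to 59.0 CPM) and 97.4 CPM in UNx replicate 6 at 72 h (others 55.6 to 61.5 CPM). Emcn was 52.2 CPM in UNx replicate 6 at 48 h (others 62.4 to 67.3 CPM), 107 CPM in UNx replicate 6 at 72 h (others 48.0 to 56.7 CPM) and 87.8 CPM in sham replicate 5 at 72 h (others 49.7 to 57.9 CPM). Npr3 was 26.0 CPM in sham replicate 4 at 24 h (others 14.6 to 18.2 CPM). In UNx replicate 4 at 24 h, Adamts9 was 14.2 CPM (others 16.9 to 18.3 CPM) and Apoe 208 CPM (others 98.7 to 116 CPM). Thbd was 19.6 CPM in sham replicate 1 at 24 h (others 11.0 to 14.1 CPM), 25.4 CPM in sham replicate 2 at 48 h (others 20.3 to 21.3 CPM) and 25.8 CPM in UNx replicate 3 at 48 h (others 17.4 to 19.7 CPM).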

How the results depend on the processing

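The count of genes called for UNx in EC1 was 0 under every alternative with no block, leaving out each mouse included. With the replicate block it was 88, with DESeq2's Wald test and the block 11, with the block on genes higher in EC1 11, and with the block but without the nuclei of highest UMI totals 62. These last 3, and the class by block fits, were chosen after seeing the data. EC2 gave 30 with the block. The difference from EC2 gave 10 genes with class by replicate block, 2 with no filter on low counts, and 0 to 14 when a mouse was left out, with 14 without sham replicate 2. The difference from all other nuclei gave 37 with class by replicate block and 0 to 1 when a mouse was left out, with 1 without UNx replicate 2. The UNx minus sham share of EC1 was -3.40 points with EC1 and EC2 nuclei as the denominator, and -1.56 to 1.42 points of all nuclei when a mouse was left out. Genes over 4 times apart from EC2 numbered 10, 48 with 1 CPM added, and 11 to 25 when a mouse was left out, with 25 without UNx replicate 2. Flt1 was found in 90.1% of nuclei with thinning and 99.5% without. With no block, leaving out a mouse reversed 8 genes, whose log2 changes ranged from -9.79 to 1.41 for Cyp26b1, -3.07 to 0.51 for Igfbp3 and -1.54 to 0.078 for Pde7b (highest without sham replicate 1), from -0.13 (without UNx replicate 1) to 2.86 for Nr4a1, and from -2.87 to 1.16 (without sham replicate 2) for Keg1. Without UNx replicate 2 the changes reached -0.67 for Lpl (highest 2.10), -0.85 for Gm42418 (highest 2.44) and -0.38 for Slc22a6 (highest 2.50). Igfbp3 was also at 0.20 without UNx replicate 2, and Lepr at 0.58 with EC1 and EC2 summed. Pan-endothelial genes called in bulk at 24 h numbered 6, 3 with no filter and 0 with the mitochondrial share as a covariate. At 48 h they numbered 8, and 0 with that covariate. They also numbered 0 with UNx replicates 1 to 5 left out, but that fit holds 1 UNx sample and says nothing about the 8 genes. The cause was not tested. Bulk replicate numbers did not pair samples (correlations from -0.387 to 0.143), and with the replicate block 4, 7 and 0 pan-endothelial genes were called at 24, 48 and 72 h. Cyp26b1, Nr4a1 and other genes had few UMIs in batch 4, which limits what can be read from them. In batch 4 the median UMI total per EC1 nucleus was higher than in batch 3, and the EC1 sums were lower.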
